A study of Mus musculus with 4 samples.

Results

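Gpr37l1, Gpr37 and Psap were read from a table of 45703 mouse genes as 3 genes picked by symbol, each present once. They were named with their levels in these same libraries already known, so all of their values below are descriptions and none was tested. The data are 4 RNA-seq libraries of poly-A RNA, one from each of 4 cultures (numbered 1 to 4 in the labels) of glial cells from the frontal cortex of wild-type CD-1 mice at postnatal day 4. CD-1 is an outbred strain. All belong to 1 group with the same treatment. The cells were grown with serum, B27 and 10 ng/ml EGF, moved on day 6 of culture to dishes of 200000 cells each, and lysed 3 days after that, following 1 h in serum-free Ham's medium. The labels call the cells cortical astrocytes and name no sorting step. They do not say how many mice gave a culture, so the spread between the 4 libraries may be partly technical.

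GPR37L1 and GPR37 are paralogous class A G protein-coupled receptors (GPCRs) whose nearest relatives are the endothelin and bombesin receptors. Both have been treated as orphans. Prosaposin, the product of Psap, and a peptide from its saposin C part have been proposed as their ligand, a pairing that not all laboratories have observed. Prosaposin has a second role inside the cell, where lysosomal cathepsins cut it into saposins A, B, C and D, small proteins that present sphingolipids to lysosomal hydrolases. In the brain Gpr37l1 is known as an astrocyte gene, and Gpr37 as an oligodendrocyte gene.

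The 2 receptors are similar enough in sequence that their reads could in principle be confused, so their coding sequences were compared. In a global alignment of the GENCODE coding sequences (1443 bases for Gpr37l1, 1800 for Gpr37), 957 of 1420 aligned bases were identical, or 67.4%. The same alignment of each receptor with the unrelated Psap gave 60.1% and 61.1%. The longest identical run was 17 bases and no stretch of 30 bases was shared. The most alike stretch of 60 aligned bases is printed because it is where the paralogues are hardest to tell apart; it was read from GENCODE transcripts on GRCm38, both genes lie on the minus strand, and capitals mark the 10 bases that differ. It is coding base 508 to 567 of Gpr37l1 (chr1:135166938-135166997) and 862 to 921 of Gpr37 (chr6:25688176-25688235).
Gpr37l1: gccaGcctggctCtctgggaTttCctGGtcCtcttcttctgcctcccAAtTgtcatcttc
Gpr37: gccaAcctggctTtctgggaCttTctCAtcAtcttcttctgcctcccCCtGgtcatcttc
Even there the genes matched at 50 of 60 bases.

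The genes lie apart on GRCm38.p6. Gpr37l1 (GeneID 171469) spans chr1:135160250-135167681 on the minus strand, Gpr37 (GeneID 14763) chr6:25668523-25689980 on the minus strand, and Psap (GeneID 19156) chr10:60277628-60302600 on the plus strand. Both receptor genes have 2 exons in the transcript with the longest coding sequence, against 15 for Psap. Psap has 5 annotated coding transcripts. A coding exon of 9 bases belongs to 1 of them, and counts per gene cannot show how often it was used. No other gene in the table overlaps the 3 genes. The closest neighbour is Cdh23, a cadherin gene on the other strand 147 bases beyond the end of Psap, with 139 counts over the 4 libraries.

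The 250 bases before each annotated start, from RefSeq on GRCm38.p6, are printed because they are a feature on which the genes differ and which the choice of members did not use. Capitals mark each CG dinucleotide. The windows are chr1:135167682-135167931 (minus strand), chr6:25689981-25690230 (minus strand) and chr10:60277378-60277627 (plus strand).
Gpr37l1: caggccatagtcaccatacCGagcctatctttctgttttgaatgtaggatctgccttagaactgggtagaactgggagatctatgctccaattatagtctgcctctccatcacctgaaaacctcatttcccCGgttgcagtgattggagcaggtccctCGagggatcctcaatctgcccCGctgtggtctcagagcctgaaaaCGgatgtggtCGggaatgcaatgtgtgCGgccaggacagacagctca
Gpr37: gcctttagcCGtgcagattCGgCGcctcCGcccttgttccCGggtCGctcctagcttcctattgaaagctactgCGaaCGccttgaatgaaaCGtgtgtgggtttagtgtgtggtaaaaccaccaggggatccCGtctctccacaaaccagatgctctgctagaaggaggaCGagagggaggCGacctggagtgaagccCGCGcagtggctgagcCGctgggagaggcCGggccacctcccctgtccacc
Psap: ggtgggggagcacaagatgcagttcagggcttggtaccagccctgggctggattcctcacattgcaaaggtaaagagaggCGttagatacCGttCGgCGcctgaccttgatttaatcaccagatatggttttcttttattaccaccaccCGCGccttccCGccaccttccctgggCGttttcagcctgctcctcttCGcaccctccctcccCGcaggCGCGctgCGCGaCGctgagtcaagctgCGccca
The Gpr37l1 window holds 7 CG dinucleotides, close to the median of 6 over 32851 such windows. Gpr37 and Psap hold 16 each, a number that 25.4% of windows reach. On both strands together, the GC box GGGCGG occurs once in the Gpr37 window and in neither of the others (32.7% of all windows hold it), and the E-box CACGTG (6.02% of windows) and TATAAA (12.4%) occur in none of them. These letters describe the windows and say nothing of what binds there.

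The libraries held 41084351, 40097076, 37300485 and 42369109 counts. Cultures 1, 2 and 3 were near repeats of each other, with a chi-square per degree of freedom of 2.11 to 3.17 between them (genes with 40 counts or more in a pair), against 39.4 to 41.1 for each of them with culture 4. Values are therefore given for every culture. Levels are counts per 1e6 counts of the library (CPM), and genes are compared with each other only as RPKM, which divides CPM by the combined exon length in kilobases that the table gives. Genes that reached 1 CPM in each of the 4 libraries count as expressed, and 14725 genes (32.2% of the table) did. All 12 markers of astrocytes, the labelled cell type, were expressed. They ranged from Slc1a3 (GLAST) at 2600.6 ± 78.6 CPM (SD, n = 4) through Aldh1l1 at 732.9 ± 14.3 CPM down to S100b at 11.8 ± 3.87 and Gjb6 at 2.46 ± 0.92 CPM. Passing 1 CPM does not set astrocytes apart, since 9 of 10 microglial markers passed it too. The summed levels, in CPM with no length term and over lists of unlike size, were 8127.8 to 9155.0 for the astrocyte list and 90.3 to 152.1 for the microglial list. The next highest cell type lists were 5 mural markers (1891.8 to 2010.6 CPM), 6 oligodendrocyte precursor markers (1528.2 to 1687.9) and 5 fibroblast markers (491.0 to 1407.0).

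Gpr37l1 was well expressed in 3 cultures and much lower in the other one. It had 4649, 4513.75 and 4353 counts in cultures 1 to 3, or 113.2, 112.6 and 116.7 CPM, and 889 counts or 20.98 CPM in culture 4. The first 3 values differ by little more than counting error, and the value of culture 4 lies far below all of them. Its 95% Poisson interval ran from 19.6 to 22.4 CPM, and those of the other cultures from 109.3 to 120.2 CPM. Intervals of this kind cover counting error only, since the reads carry no molecular identifiers. The mean of cultures 1 to 3 (114.1 ± 2.24 CPM, SD, n = 3) was 5.44-fold the level of culture 4, a log2 difference of -2.44. With a single culture on one side, this difference has no replicate check.

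Gpr37 was close to the limit of what was called expressed. It had 49, 45, 41 and 39 counts in cultures 1 to 4, or 1.19, 1.12, 1.10 and 0.92 CPM. These 4 values lie within each other's Poisson intervals, which ran from 0.88 to 1.58 CPM in culture 1 and from 0.65 to 1.26 CPM in culture 4. Culture 4 was the lowest, by a log2 difference of -0.31, and fell just under the minimum of 1 CPM, so Gpr37 was not called expressed. A difference of this size was not detectable at this depth.

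Psap was among the most abundant transcripts of the cultures. It had 56630.83, 55253.75, 55056.83 and 73034 counts in cultures 1 to 4, or 1378.4, 1378.0, 1476.0 and 1723.8 CPM. Culture 4 was the highest here, 1.22-fold the mean of the other 3 (1410.8 ± 56.5 CPM, SD, n = 3), and culture 3 lay above cultures 1 and 2. Over the 4 cultures Psap made up 0.149% of all counts and stood at place 31 of the table by CPM and at place 52 by RPKM.

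**Figure D1:**
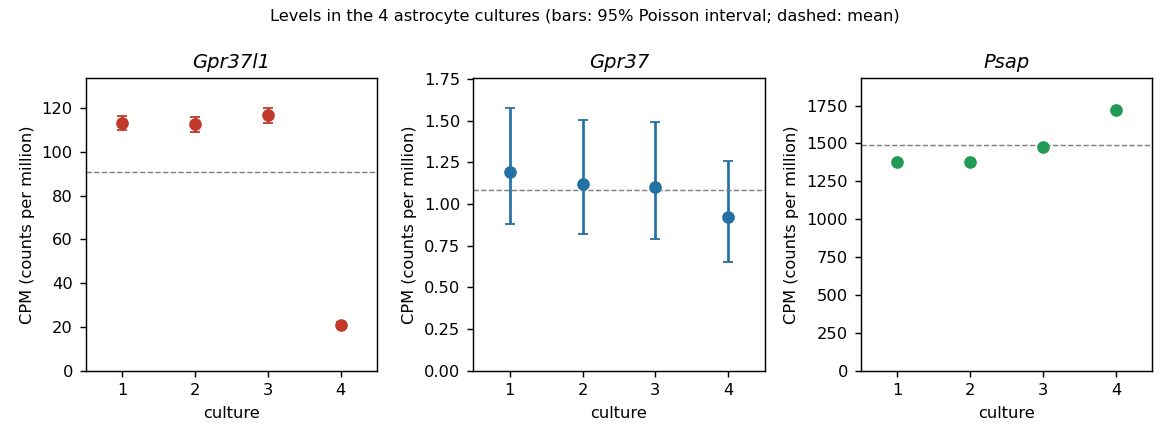
CPM of Gpr37l1, Gpr37 and Psap (vertical axes, each starting at 0) in cultures 1 to 4 (horizontal axis); points are single libraries, bars the 95% Poisson interval (smaller than the points for Psap and for Gpr37l1 in culture 4), and the dashed line is the mean. Gpr37l1 falls between 112.6 and 116.7 CPM in cultures 1 to 3 but has 20.98 CPM in culture 4, while Psap is highest in culture 4 at 1723.8 CPM.

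The ratios between the genes followed from this. Gpr37l1 stood above Gpr37 in RPKM by 135.0-fold, 142.7-fold and 151.0-fold in cultures 1 to 3 and by 32.4-fold in culture 4. Gpr37l1 was thus the prevailing receptor of the pair in 4 of 4 cultures, and the size of its lead rests on as few as 39 counts of Gpr37. The proposed ligand stood above the prevailing receptor as a transcript: Psap was 10.0-fold, 10.1-fold and 10.4-fold above Gpr37l1 in RPKM in cultures 1 to 3 and 67.8-fold above it in culture 4.

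Culture 4 departed from the others in many genes, which sets the background for these differences. Of the 14725 expressed genes, 10.9% were lower in culture 4 by more than 0.32 on the log2 scale, the bound used here for a difference of culture 4, and 9.64% were higher by more than that; culture 4 was below each other culture in 34.6% and above each in 47.6%. Psap, at a log2 difference of 0.29, was inside the bound and stood 1776th from the top of the difference. Gpr37l1 had the 7th lowest value of the expressed genes, and 13 of them (0.0883%) were lower past 4-fold. Genes under 1 CPM in any culture, culture 4 included, are not in this order. The edgeR biological coefficient of variation, its estimate of the spread between libraries beyond counting error, was 0.505 for Gpr37l1 (41st highest of 17113 genes), 0.116 for Gpr37 and 0.0917 for Psap. Without culture 4 it was 0.0239 for Gpr37l1. The counts of Gpr37 themselves showed no spread beyond counting error. The coefficient of variation of its CPM was 10.7%, below the 15.2% of counting error alone. Among the 5 genes whose log2 deviations over the 4 cultures lay closest to those of Gpr37l1, out of 10729 genes at 10 CPM or more, were the collagen gene Col6a2 (Euclidean distance 0.06), Trim12c (0.09), Gm5611 (0.15) and the collagen gene Col3a1 (0.33). Likeness to the other 2 says less, because 3144 genes lay within 0.25 of Gpr37 and 5316 within 0.25 of Psap. The nearest to Gpr37 were Frem1, Dgkb, Gk, Prokr1 and Rab4a, and the nearest to Psap were Rhbdf1, Kif7, Scpep1, Camta2 and Ercc6l. The gene before Gpr37l1 on the chromosome, Arl8a, a lysosomal small GTPase gene 3981 bases away, had 318.3 to 323.8 CPM in cultures 1 to 3 and 266.4 CPM in the other one.

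Among receptors, Gpr37l1 ranked high, and Gpr37 lay near the limit of what was called expressed. Of a list of 337 non-sensory GPCR genes 110 were expressed (32.6%, near the 32.2% of the whole table and below the 58.1% of its protein-coding genes), and 34 had no count. By RPKM Gpr37l1 was 4th of the 337 in each of cultures 1, 2 and 3 and 24th in culture 4, and 6th by the mean (40.3 ± 20.7 RPKM, SD, n = 4). By mean CPM, with no length term, it was 16th. The receptors above it by the mean were the thrombin receptor F2r (135.5 ± 3.02 RPKM), the endothelin receptor Ednrb (108.1 ± 5.34), the sphingosine 1-phosphate receptor S1pr1 (52.1 ± 3.16), the adhesion receptor Adgrg1 (47.2 ± 4.36) and Gprc5b (41.9 ± 1.74). In cultures 1 to 3 its 50.0 to 51.8 RPKM lay just below S1pr1 (52.5 to 54.9) and above Adgrg1 (44.1 to 45.9). Below it came Smo, the hedgehog signal transducer, at 34.4 ± 1.02 RPKM, the adenosine receptor Adora1 at 29.9 ± 4.40 and the adhesion receptors Adgrl2 and Adgrg6 at 29.5 ± 2.95 and 27.7 ± 0.79. With the spread of Gpr37l1 over 4 cultures, its mean is not set apart from any of the 4 receptors around it.

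Gpr37 was 113th of 337 by RPKM, at 0.34 ± 0.036 (SD, n = 4). Its neighbours in the order were Lgr6 and Adra2c above and Npy1r and Ackr4 below, between 0.33 and 0.34 RPKM, and none of them differed from it beyond the spread between cultures. With GENCODE transcript lengths, in which Gpr37 has a longer model (4974 bases against the deposited 3205), it was 140th.

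**Figure D2:**
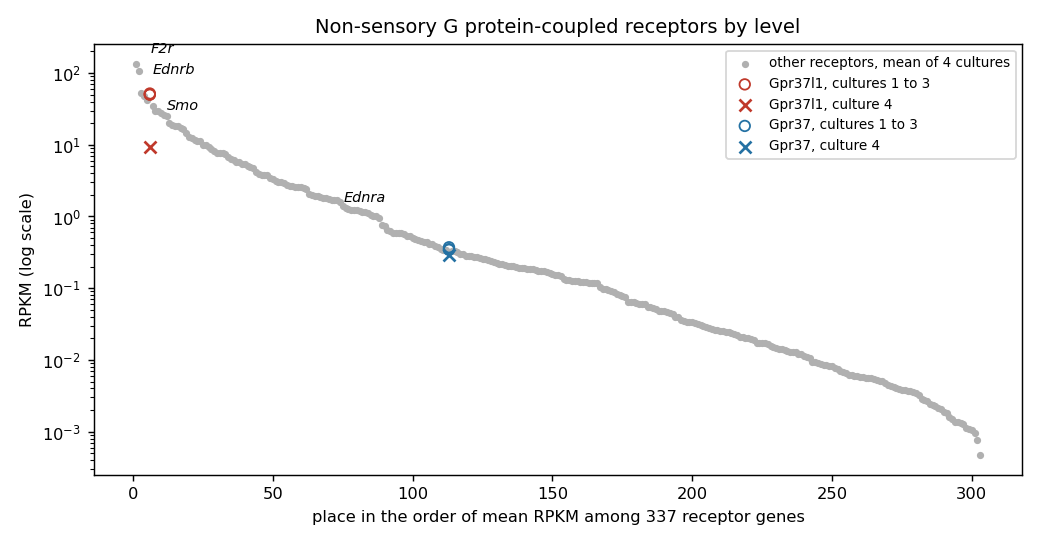
RPKM on a log scale (vertical axis) of the 303 non-sensory receptor genes with a count, placed by their mean among 337 genes (horizontal axis); grey points are means of 4 cultures, circles and crosses show the 2 receptors in cultures 1 to 3 and in culture 4. Gpr37l1 lies at 50.0 to 51.8 RPKM in cultures 1 to 3 and at 9.31 RPKM in culture 4.

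Receptor genes leaned towards lower values in culture 4. Of the 110 expressed receptors 37 (33.6%) were lower past the bound and 9 (8.18%) were higher, against 10.9% and 9.64% of all expressed genes. The median log2 difference was -0.16, against 0.035 over all expressed genes. Gpr37l1 had the lowest value of the 110. Next to it among them was the adenosine receptor Adora2b, at 5.71 to 6.52 CPM in cultures 1 to 3 and 1.37 CPM in culture 4 (log2 difference -2.13). The minimum of 1 CPM applies to culture 4 too, so receptors under it there are left out. One of them, Mrgprf, had a lower value (log2 difference -2.58), at 1.19 to 1.64 CPM in cultures 1 to 3 and 0.24 CPM in culture 4. Receptors low in cultures 1 to 3 are left out as well, such as Gpr158 (log2 difference 1.92). The closest relatives of Gpr37l1 and Gpr37 were not among the low ones: Ednrb had 495.4 CPM in culture 4 against 441.0 to 483.7 CPM in the others, and Ednra 5.55 against 6.57 to 7.06 CPM. The bombesin-type receptors were barely detected, with 25 counts for Grpr and 17 for Nmbr over the 4 libraries. Brs3 had none, which at 3 counts per library allows up to 0.0708 to 0.0804 CPM.

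The other genes of these pathways were mostly expressed: of 61 genes in 9 lists around the receptors and prosaposin, 52 were (85.2%). The share was 32.2% over all genes and 58.1% over protein-coding genes, and the same shares apply to the list counts below. The lists were chosen with earlier results of these data known. GPR37L1 and GPR37 have been reported to couple to Gi/o proteins. All 5 Gi/o alpha subunit genes were expressed, with Gnai2 at 397.7 ± 15.2 RPKM, Gnao1 at 68.3 ± 6.84, Gnai3 at 48.1 ± 1.52, Gnai1 at 16.2 ± 1.02 and Gnaz at 1.58 ± 0.12 (SD, n = 4), and none differed past the bound in culture 4. All 7 genes of arrestins and receptor kinases were expressed, led by the kinases Grk2 (30.7 ± 0.58 RPKM) and Grk6 (22.6 ± 1.21) and by the arrestin Arrb2 (10.1 ± 1.07), followed by Grk3 (4.60 ± 0.34), Arrb1 (2.25 ± 0.30), Grk5 (1.96 ± 0.21) and Grk4 (1.05 ± 0.032). Of these, Arrb1 was lower in culture 4 past the bound, at 15.8 CPM against 19.9 to 21.8 CPM.

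Both receptors are cut in their extracellular N terminus, by metalloproteases and, for GPR37, by furin. The sheddase genes Adam10 and Adam17 were at 53.9 ± 1.40 and 26.4 ± 1.38 RPKM, Furin at 16.7 ± 0.92, and the tyrosine sulfation enzyme genes Tpst1 and Tpst2 at 23.5 ± 0.96 and 12.6 ± 1.33 RPKM (SD, n = 4). None of these 5 genes differed past the bound in culture 4, where the log2 difference of Gpr37l1 was -2.44.

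Genes of proteins reported to bind or work with the receptors were mostly expressed. For GPR37L1 these are the hedgehog receptor Ptch1 and the glutamate transporters Slc1a3 and Slc1a2, and all 3 were expressed, at 21.9 ± 1.03, 618.3 ± 18.7 and 23.7 ± 2.78 RPKM. In culture 4 Ptch1 was at 156.2 CPM against 171.8 to 172.3 CPM, and Slc1a2 at 368.0 against 285.2 to 311.0 CPM, so that neither shared the difference of Gpr37l1. For GPR37, 8 of 10 were expressed. The PDZ protein gene Sdcbp (syntenin) had 99.4 ± 6.45 RPKM, the ubiquitin ligase gene Stub1 (CHIP) 88.7 ± 2.04 and Septin5 15.9 ± 0.87. The dopamine genes Drd2 and Slc6a3 were not called expressed, with 52 and 19 counts in all. Adora2a, whose product forms complexes with GPR37, ranged from 3.89 to 6.77 CPM over cultures 1 to 3 and had 12.1 CPM in culture 4, a wide range also without culture 4.

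Psap stood far above the genes listed here for lysosomal lipid breakdown, not all of which encode hydrolases that saposins assist. All 12 genes of this list were expressed, and Psap exceeded each of them in RPKM, from 7.98-fold for the acid sphingomyelinase gene Smpd1 (68.3 ± 9.29 RPKM) and 8.13-fold for Hexa (67.1 ± 5.30) to 123.4-fold for the alpha-galactosidase gene Gla (4.42 ± 0.18). The saposin A partner Galc was at 20.0 ± 1.603 RPKM, the saposin B partner Arsa at 19.8 ± 0.81 and the saposin D partner Asah1 at 40.9 ± 1.29 RPKM (SD, n = 4). In culture 4 none of the 12 was higher past the bound, which Psap did not pass either, against 9.64% of all expressed genes. There 3 were lower (among them Glb1 at 42.3 against 57.1 to 57.7, and Smpd1 at 131.4 against 173.4 to 179.8 CPM), against 10.9% of all expressed genes. The median log2 difference of the 12 was -0.21. Galc, at 144.0 CPM in culture 4 against 122.3 to 124.5 CPM, and the sialidase gene Neu1, at 26.1 against 23.6 to 24.6 CPM, were higher there, inside the bound.

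The genes that cut, carry or take up prosaposin were all expressed, 9 of 9. Ctsd, the aspartic protease cathepsin D, was the one among them with a mean above that of Psap, at 629.5 ± 129.2 RPKM. This order held in cultures 1 to 3 and was the other way round in culture 4, where Ctsd was at 436.6 and Psap at 631.2 RPKM. Its difference had the other sign, with 837.0 CPM in culture 4 against 1308.5 to 1365.7 CPM in cultures 1 to 3, and Ctsb (166.7 ± 18.3 RPKM) was lower there as well, at 662.4 against 815.4 to 851.3 CPM. Progranulin (Grn), a secreted partner of prosaposin, was at 99.3 ± 3.93 RPKM. The sorting receptor genes M6pr, Sort1, Sorl1 and Igf2r were at 66.7 ± 2.09, 35.0 ± 2.08, 31.1 ± 0.82 and 8.16 ± 0.42 RPKM, the uptake receptor gene Lrp1 at 21.2 ± 0.66, and none of these 5 differed past the bound in culture 4. Among genes of the saposin fold, Psap had no expressed close paralogue. Psapl1 had 2 counts in all and the surfactant gene Sftpb none, while Manf, a secreted ER protein gene with a saposin-like domain, was at 164.6 ± 5.27 RPKM. Aoah and Cdnf were at 0.34 ± 0.17 and 0.91 ± 0.26 CPM.

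**Figure D3:**
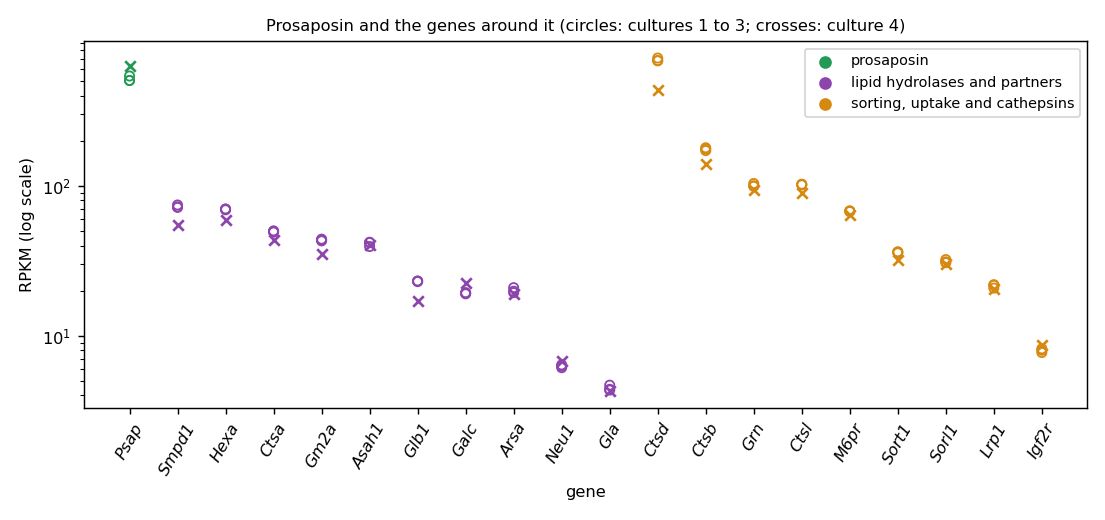
RPKM on a log scale (vertical axis) of Psap, 10 of the 12 genes listed for lysosomal lipid breakdown and 9 genes of prosaposin sorting, uptake and cleavage (horizontal axis); circles are cultures 1 to 3 and crosses culture 4. Psap is higher in culture 4, while Ctsd, Ctsb, Glb1 and Smpd1 are lower there.

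In bulk RNA fewer cells of a type and less RNA per cell cannot be told apart. Of the 12 astrocyte markers 5 were lower in culture 4 past the bound, 2 of them past 2-fold, and none was higher. Of all expressed genes 10.9% were lower and 9.64% higher past the bound. Gfap was at 779.7 CPM against 1498.1 to 1554.7, S100b at 6.11 against 12.7 to 14.5, and Gjb6 at 1.09 against 2.84 to 3.02 CPM. The other 2 of the 5 were Aqp4, at 706.8 against 903.6 to 1015.1 CPM, and Gja1, at 338.6 against 431.4 to 457.9 CPM. The median log2 difference of the 12 markers was -0.085, and Aldh1l1, Sox9, Slc1a3 and Glul lay between -0.075 and 0.14. The level of Gpr37l1 in culture 4 was lower than that of any marker of this list relative to cultures 1 to 3.

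Markers of other cell types differed too. The summed level of 10 microglial markers, cells in which Psap is known to be abundant, was 143.0 to 152.1 CPM in cultures 1 to 3 and 90.3 CPM in culture 4, where Psap was higher. All 9 expressed genes of that list were lower there past the bound, against 10.9% of all expressed genes. The largest differences among these 9 were in the complement genes C1qa (16.5 against 29.3 to 31.4 CPM), C1qc (10.9 against 19.9 to 21.2) and C1qb (8.97 against 15.8 to 16.6). The remaining marker, Tmem119, differed more (log2 difference -2.16), at 0.76 against 3.12 to 3.54 CPM. It was not called expressed because of its value in culture 4. The summed level of 5 fibroblast markers was 1322.1 to 1407.0 CPM against 491.0 CPM, with Col1a1 at a log2 difference of -3.04 and Col1a2 at -0.84, of 6 endothelial markers 13.5 to 14.5 against 7.62 CPM, and of 5 proliferation genes 1167.8 to 1189.4 against 1544.9 CPM. The 5 mural markers summed to 1891.8 to 2010.6 and 1976.6 CPM, nearly all of it smooth muscle actin (Acta2, 1928.8 CPM on average). Of the 3 mural markers that were expressed, 2 were lower past the bound, against 10.9% of all expressed genes. These were Pdgfrb, at 20.94 against 30.43 to 31.45 CPM, and Rgs5, at 5.10 against 7.40 to 8.95 CPM. The 9 neuron markers summed to 202.7 to 208.2 and 181.9 CPM, mostly Stmn2 (147.8 ± 4.73 CPM). The part of these other cell types in the values of Gpr37l1 and Psap was not tested.

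For Gpr37, the oligodendrocyte lineage is the comparison of interest. Of 12 oligodendrocyte markers 6 were expressed, and the sum of 231.2 to 250.5 CPM in cultures 1 to 3 and 210.4 CPM in culture 4 was mostly Cnp (207.6 ± 15.1 CPM). Of the myelin genes, Mbp was at 1.88 ± 0.27 CPM, Mag was at 0.21 ± 0.049 CPM, Mog had 1 count in all and Opalin none. Of 6 precursor markers, 4 were expressed, with Olig1 at 1310.4 ± 71.0, Olig2 at 240.9 ± 7.89, Cspg4 at 23.9 ± 0.60 and Pdgfra at 14.6 ± 3.95 CPM, while Sox10, which defines the lineage, was at 0.055 ± 0.048 CPM and Gpr17 had 2 counts in all. Gpr37, with 39 to 49 counts per library, and the defining genes of mature oligodendrocytes were thus both at low levels or undetected in these cultures.

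**Figure D4:**
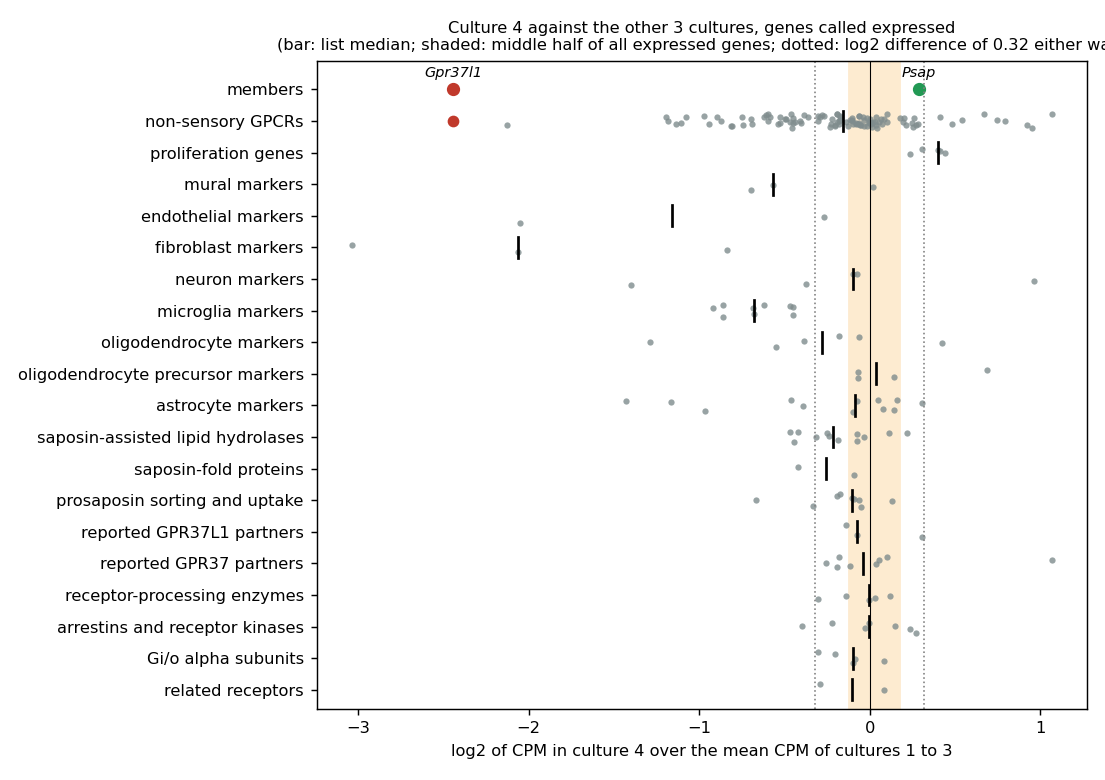
Log2 of CPM in culture 4 over the mean CPM of cultures 1 to 3 (horizontal axis) for the expressed genes of each list (rows); each point is a gene, bars are list medians, the shaded band spans the interquartile range of all 14725 expressed genes and dotted lines mark 0.32 either way. Gpr37l1 lies at -2.44, lowest of the 110 expressed receptors, and Psap at 0.29, inside the dotted lines.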

How the data were processed

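The authors deposited 1 table of estimated counts per gene, with 1 column for each of the 4 cultures and the combined exon length of each gene; 31.7% of the values above 0 are not whole numbers. Per the submitters' processing notes, bcl2fastq 2.20.0.422, cutadapt 1.17, STAR 2.7.2b and featureCounts 1.6.4 were used with GRCm38.p6; their settings and the use of strand were not given in the sources used here. Per the labels' protocols, stranded poly-A libraries were made from 500 ng of RNA with 14 PCR cycles. CPM (raw library sums) and RPKM were computed here. At these depths 1 count is 0.0236 to 0.0268 CPM. The deposited length covers all exons of a gene, in bases, so RPKM is too low where a short transcript is used. edgeR 4.0.16 gave TMM factors and the intercept-only BCV (filterByExpr, 17113 genes), checked on simulated counts, and DESeq2 1.42.0 gave size factors. There is 1 group and no contrast, so nothing was tested. Members, gene lists and settings were chosen with earlier results of these data known; all 457 list symbols were found. The rule for named genes gave the members, the 3 highest of each list by RPKM, every gene of lists of 7 or fewer, partners and lipid breakdown genes not expressed, the top 10 receptors and 2 neighbours on each side, the 5 nearest by deviation and the adjacent genes. Not every marker gene under this rule is named, since several lists are given as sums, and names outside it were chosen after their values were seen. Values of a few list genes are not reported here.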

Additional observations from a re-analysis of the deposited data

Results flagged for a closer look

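A culture far from the other 3 was found in several results: the gap between it and the nearest other culture, divided by the whole range, was above Dixon's 95% critical value for 4 samples. Chance flags about 1 in 20 groups of 4, and 15.2% of the 14725 expressed genes passed the same bound here. For Gpr37l1 in CPM this share was 0.957, and for the log2 ratios of Gpr37l1 to Gpr37 and of Psap to Gpr37l1 it was 0.927 and 0.98. Among the summed lists it was 0.88 for prosaposin sorting and uptake, 0.859 for saposin-fold proteins, 0.994 for the genes of lysosomal lipid breakdown and 0.955 for the non-sensory GPCRs (5202.2 to 5217.5 CPM in cultures 1 to 3 and 4877.8 CPM in culture 4). For the marker lists it was 0.852 for microglia, 0.907 for fibroblasts, 0.851 for endothelial cells and 0.943 for proliferation genes. In each of these results the culture that stood apart was culture 4. Psap and Gpr37 did not pass the bound.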

How the results depend on the processing

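Of 154 values under other settings, for 24 results, 139 kept their value within the bounds used (1 SD between cultures, or 1.5 times for counts and spreads). For the level of Gpr37l1 this SD was 46.6 CPM, culture 4 included, so that bound was wide. A change of direction was possible only for the log2 differences of culture 4 and the log2 ratios, and none of these changed direction. With cultures 1 to 3 summed as 1 sample, the coefficient of variation (CV) of Gpr37l1 was 97.5% and the BCV of Gpr37 0.226. Leaving out 1 culture at a time, the CV ran from 1.96 to 64.9% for Gpr37l1, 4.28 to 13.1% for Gpr37 and 4.0 to 13.4% for Psap, and the BCV from 0.0239 to 0.548, from 0.00988 to 0.158 and from 0.0287 to 0.106; each lowest value is without culture 4. The log2 difference of Gpr37l1 in culture 4 was -2.47 with TMM library sizes and -2.47 with DESeq2 size factors. With GENCODE lengths Gpr37 was at 0.22 RPKM and 140th among receptors. Without a length term it was 122nd, Gpr37l1 was 16th in place of 6th, and Psap was 31st of the expressed genes. Past 1.5-fold, 22 expressed receptors were lower in culture 4. No paired analysis was possible because there is 1 group. The 39 to 49 counts of Gpr37 per library limit what can be said of its differences.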
